A study of Caenorhabditis elegans with 4 samples.

Results

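The 22G siRNA-binding Argonautes of Caenorhabditis elegans are the worm-specific Argonautes (WAGOs) and CSR-1. They were taken by name from a table of RNA levels in rde-3 mutant and wild-type animals. The list names 10 genes: wago-1, wago-2, wago-4, wago-5, ppw-1, ppw-2, sago-2, hrde-1, nrde-3 and csr-1. It does not hold every WAGO, and sago-1, wago-10 and wago-11 are counted among the other Argonautes further below. Of these, 9 had a row among the 18638 features of the table (18468 genes and 170 repeat elements). The gene wago-5 was not analysed here. The 9 genes had mean normalized counts of 362 or more, so none of them was at the low end of the data.

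The data came from 4 poly(A) RNA libraries of populations of whole gravid adults, 2 of the rde-3 mutant strain YY1449 and 2 of N2, the standard laboratory wild type. The gene rde-3 is also named mut-2, and the labels do not name the allele. With 1 strain per genotype, the rde-3 mutation and any other difference of YY1449 from N2 cannot be told apart. The libraries of a genotype are called biological replicates by the submitters.

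Argonautes are proteins that carry a small RNA and use it as a guide to complementary transcripts. In worms a primary small RNA marks a target transcript, and RNA-dependent RNA polymerases then copy that transcript into 22G siRNAs, short antisense RNAs that begin with guanosine. WAGOs carry 22G siRNAs that silence transposons, pseudogenes and foreign sequences, and CSR-1 carries 22G siRNAs against genes expressed in the germline. MUT-2, the protein made by rde-3, adds poly(UG) tails to targeted RNAs, and the tailed RNAs serve as templates for the 22G siRNAs of the WAGO branch. The comparison asked how far the RNA levels of the Argonautes themselves differed in animals mutant for rde-3.

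The authors' deposited table listed each gene with its mean normalized count, its log2 fold change and standard error (SE), and an adjusted p. Its name puts the mutant before the wild type, and a positive value was therefore taken to mean a higher level in the mutant animals; the table itself gives no direction. Levels per genotype below are group means worked out from the deposited mean and ratio, and are called implied means. They carry no SD, since values per library were not used, and the depth of each library is unknown. Intervals are 95% normal intervals from the deposited SE. For mut-2 itself the authors' deposited table gave 0.06 ± 0.16 on the log2 scale (SE, 2 libraries per genotype, adjusted p = 0.905).

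Of the 9 Argonaute genes, 4 were higher in the rde-3 mutants, 2 were lower and 3 did not pass an adjusted p of 0.05 in the authors' deposited table. The genes that rose were wago-2, hrde-1, ppw-1 and wago-1, and the genes that fell were wago-4 and ppw-2. The genes that did not pass were sago-2, nrde-3 and csr-1. These calls use a normal distribution for the authors' statistic, and with a t distribution of 2 degrees of freedom in its place 0 of the 9 genes passed. Under that setting 0 of all features passed, so it does not set these genes apart from others. Over all features 9.42% were called higher and 8.04% lower, 17.5% in either direction, and over genes alone 9.41% and 8.11%. Abundant genes were called more often, and all 9 Argonautes were abundant. Among the 5449 genes with a mean of at least 300, 38.3% were called, 23.2% higher and 15.1% lower. Among genes with a mean close to that of each Argonaute, the share called rose with the mean. It was 26.6% for sago-2, 32.8% for nrde-3 and 43.4% for wago-2. For the other Argonautes with a row it lay between 52.2% at ppw-1 and 64.8% at hrde-1. Whether 6 called of 9 exceeds these shares was not tested. The median log2 fold change of the 9 genes was 0.26, against 0.11 over those 5449 genes and -0.02 over all features. Their values ran from -1.27 for wago-4 to 1.07 for wago-2, and their median absolute log2 fold change was 0.52, against 0.33 for genes with a mean of at least 300.

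**Figure D1:**
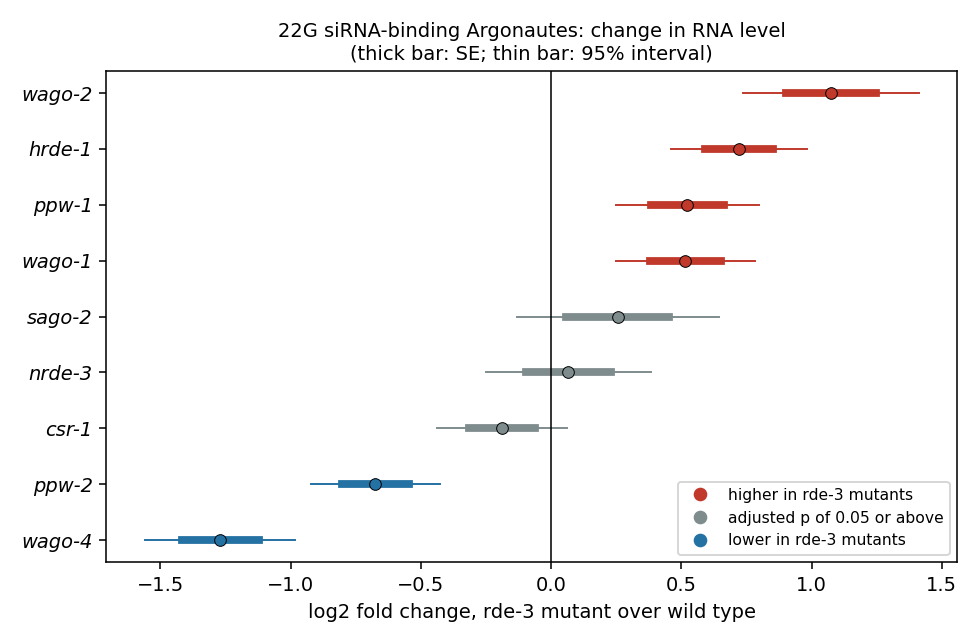
Log2 fold change, rde-3 mutant over wild type, of the 9 Argonaute genes with a row in the authors' deposited table. Points are the deposited values, thick bars their SE and thin bars the 95% interval. The 4 genes that were higher lie between 0.52 and 1.07, wago-4 and ppw-2 lie at -1.27 and -0.67, and the intervals of sago-2, nrde-3 and csr-1 cross 0.

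Of the nuclear Argonautes, hrde-1 rose and nrde-3 did not pass. HRDE-1 carries germline 22G siRNAs into the nucleus and is needed for silencing to be inherited over many generations. Its gene hrde-1 (chromosome III, 4172337 to 4176159, build WBcel235, minus strand, 7 exons) had an implied mean of 19145 normalized counts in the mutants, against 11612 in the wild type. This was a 1.65-fold rise (log2 0.72 ± 0.13, adjusted p = 1.53e-06) per the authors' deposited table. The gene hrde-1 had the highest mean normalized count of the 9 genes, and 0.596% of all genes had a higher mean.

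NRDE-3 does the corresponding work in somatic nuclei. Its gene nrde-3 (chromosome X, 372235 to 376900, plus strand, 11 exons) had implied means of 813 normalized counts in the mutants and 776 in the wild type. The log2 fold change was 0.07 ± 0.16 (adjusted p = 0.896) per the authors' deposited table, with an interval of -0.25 to 0.38. The difference between the log2 fold changes of hrde-1 and nrde-3 was 0.65, with an interval of 0.25 to 1.06 when their errors were taken as independent. Widened for all pairs of the 9 genes, that interval was -0.01 to 1.32 and included 0.

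The genes wago-1 and wago-4, whose products are both found in germ granules, moved in opposite directions. WAGO-1 resides in P granules, the perinuclear germ granules of the worm, and silences transposons and pseudogenes in the germline. The gene wago-1 (chromosome I, 7235384 to 7238792, plus strand, 9 exons) had an implied mean of 15860 normalized counts in the mutants, against 11094 in the wild type. It was 1.43-fold higher (log2 0.52 ± 0.14, adjusted p = 0.00176) per the authors' deposited table, a call that was lost when a trend with transcript length was removed.

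WAGO-4 is found in Z granules, next to P granules, and acts with the helicase ZNFX-1 in the inheritance of RNA interference. The gene wago-4 (chromosome II, 12919551 to 12923377, plus strand, 11 exons) had an implied mean of 2770 normalized counts in the mutants, against 6683 in the wild type. This was a 2.41-fold lower level (log2 -1.27 ± 0.15, adjusted p = 8.46e-16) by the authors' deposited table, and no other Argonaute had a smaller adjusted p. Only wago-4 and wago-2 differed by more than 2-fold among them. The difference in log2 fold change between wago-1 and wago-4 was 1.79 (interval 1.39 to 2.18).

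The pair named ppw, for PAZ and PIWI domain genes, also split. PPW-1, also called WAGO-7, is needed for RNA interference against germline genes. The gene ppw-1 (chromosome I, 4185174 to 4189956, plus strand) had an implied mean of 4342 normalized counts in the mutants and 3021 in the wild type. It rose 1.44-fold (log2 0.52 ± 0.14, adjusted p = 0.00234) per the authors' deposited table, and this call too was lost without the length trend. PPW-2, also called WAGO-3, is a germline Argonaute that is also found in sperm and carries 22G siRNAs from the father to the embryo. The gene ppw-2 (chromosome I, 5158511 to 5162232, minus strand, 11 exons) had an implied mean of 3057 normalized counts in the mutants and 4878 in the wild type. It fell by 0.67 ± 0.13 on the log2 scale (adjusted p = 3.19e-06) per the authors' deposited table, a 1.60-fold lower level. The log2 fold changes of ppw-1 and ppw-2 differed by 1.20 (interval 0.83 to 1.57).

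Among the 9 genes the largest rise belonged to wago-2, a relative of wago-1 that the Ensembl release 115 and RefSeq annotations both class as a pseudogene. At this locus (chromosome I, 5368478 to 5372643, plus strand) the implied mean was 2642 normalized counts in the mutants, against 1255 in the wild type. The rise was 2.11-fold (log2 1.07 ± 0.17, adjusted p = 2.00e-08) per the authors' deposited table. The log2 fold change of wago-2 exceeded that of wago-1 by 0.56 (interval 0.13 to 0.99, or -0.14 to 1.26 when widened for all pairs). How many reads of wago-2 would also match wago-1 or another relative was not tested, nor was this tested for the other Argonaute genes. The 20 flanking genes of wago-2 (10 on each side with a mean of at least 10, overlapping genes left out) had a median log2 fold change of 0.51. Of these 20, 8 were higher and 2 lower. Over all features, which include those with lower means, 9.42% were called higher and 8.04% lower. For the other 8 Argonautes with a row, the median of the flanking genes lay between -0.30 at wago-4 and 0.18 at ppw-1. Beside wago-4, 5 of the 20 flanking genes were higher and 7 were lower.

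SAGO-2, also called WAGO-6, is a secondary Argonaute of RNA interference. It had the lowest mean normalized count of the 9 genes. The gene sago-2 (chromosome I, 618160 to 621490, plus strand) had implied means of 394 normalized counts in the mutants and 330.1 in the wild type. The log2 fold change was 0.26 ± 0.20 (adjusted p = 0.503) per the authors' deposited table, with an interval of -0.13 to 0.64. Its whole span lies within eme-1, a gene on the opposite strand, and they share 0 exonic bases. Libraries made with this kit are unstranded, and unspliced reads of either gene cannot be told apart. The gene eme-1 had a mean of 387 normalized counts and rose by 0.61 ± 0.20 on the log2 scale (adjusted p = 0.0182) per the authors' deposited table.

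CSR-1 is the essential member of the group. It can cut its targets, is needed for chromosome segregation and protects germline genes from silencing, and its 22G siRNAs are made by the polymerase EGO-1 without the mutator proteins. The gene csr-1 (chromosome IV, 7957267 to 7962157, plus strand) had implied means of 9822 normalized counts in the mutants and 11195 in the wild type. The log2 fold change was -0.19 ± 0.13 (adjusted p = 0.399) per the authors' deposited table, with an interval of -0.44 to 0.06. It was called lower when the length trend was removed. It lay 0.91 below hrde-1 (interval 0.55 to 1.27) and 0.70 below wago-1 (interval 0.34 to 1.07), and 1.08 above wago-4 (interval 0.70 to 1.46). The receptor gene frpr-10 shares 438 exonic bases with csr-1, which is 11.9% of the exonic length of csr-1, but had a mean of only 4.88 normalized counts.

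Among the 36 pairs of the 9 genes, 26 had a 95% interval of the difference in log2 fold change that did not include 0. With intervals widened for 36 comparisons, 18 did not include 0. All 7 differences between wago-4 and the genes other than ppw-2 were among these 18. The difference between ppw-2 and wago-4 was 0.60 (interval 0.21 to 0.98, or -0.03 to 1.22 when widened). Among wago-1, ppw-1 and hrde-1 every interval included 0, with differences of 0.01 for ppw-1 and wago-1 (interval -0.38 to 0.39), 0.21 for hrde-1 and wago-1 (-0.17 to 0.58) and 0.20 for hrde-1 and ppw-1 (-0.18 to 0.58). These intervals take the errors of the genes as independent, although all genes were measured in the same libraries. They are also normal intervals from 2 libraries per genotype, and the counts of 26 and 18 were not worked out with a t distribution.

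The order of the Argonautes by level per exonic length differed between the genotypes. In the mutants hrde-1 and wago-1 stood highest, at 5413 and 5191 implied normalized counts per kb. They were followed by csr-1 at 2678, ppw-1 at 1398, ppw-2 at 938, wago-4 at 822, wago-2 at 695, nrde-3 at 236 and sago-2 at 134. In the wild type wago-1 and hrde-1 stood at 3632 and 3283 per kb, with csr-1 close below at 3052. Next came wago-4 at 1984, ppw-2 at 1496, ppw-1 at 973, wago-2 at 330.1, nrde-3 at 226 and sago-2 at 112. Thus wago-4 and ppw-2 ranked above ppw-1 in the wild type and below it in the mutants. The spread between libraries behind each level is unknown, so neighbours in either order cannot be separated by their spread.

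**Figure D2:**
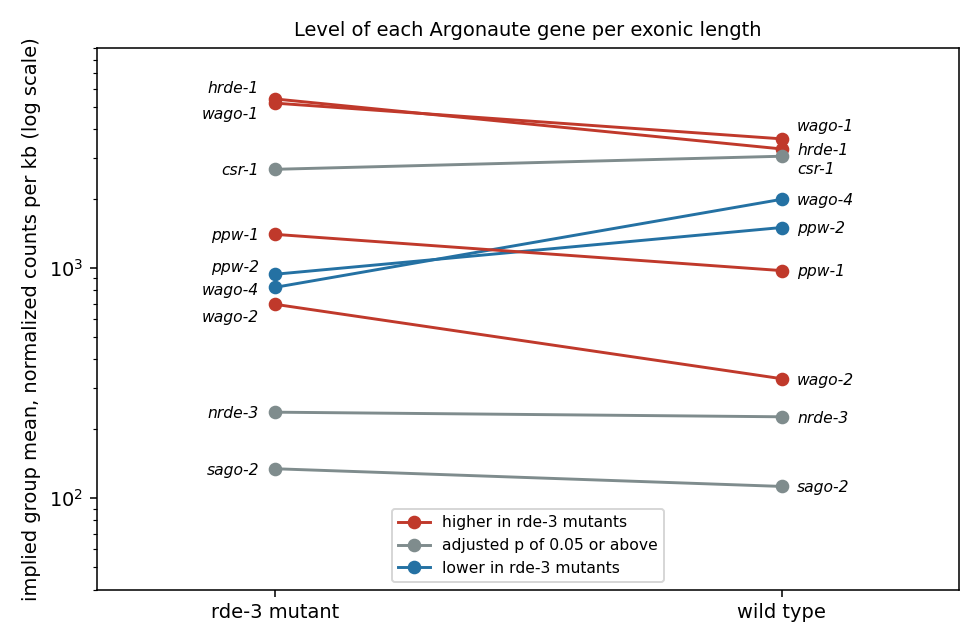
Implied mean normalized counts per kb of exon for each Argonaute gene, in rde-3 mutants at the left and in the wild type at the right, on a log axis. Lines join the values of a gene, no error is shown because values per library were not used, and the lines of wago-4 (822 against 1984) and ppw-2 (938 against 1496) cross that of ppw-1 (1398 against 973).

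Summed over the 9 genes, Argonaute RNA amounted to 58844 implied normalized counts in the mutants and 50845 in the wild type, a ratio of 1.16. The genes hrde-1, wago-1 and csr-1 together held 76.2% of the sum in the mutants and 66.7% in the wild type. The share of hrde-1 was 32.5% in the mutants and 22.8% in the wild type. The share of wago-4 was 4.71% in the mutants and 13.1% in the wild type, and that of ppw-2 was 5.19% in the mutants and 9.59% in the wild type. These shares follow from the deposited means and folds, are not corrected for length and have no error of their own.

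**Figure D3:**
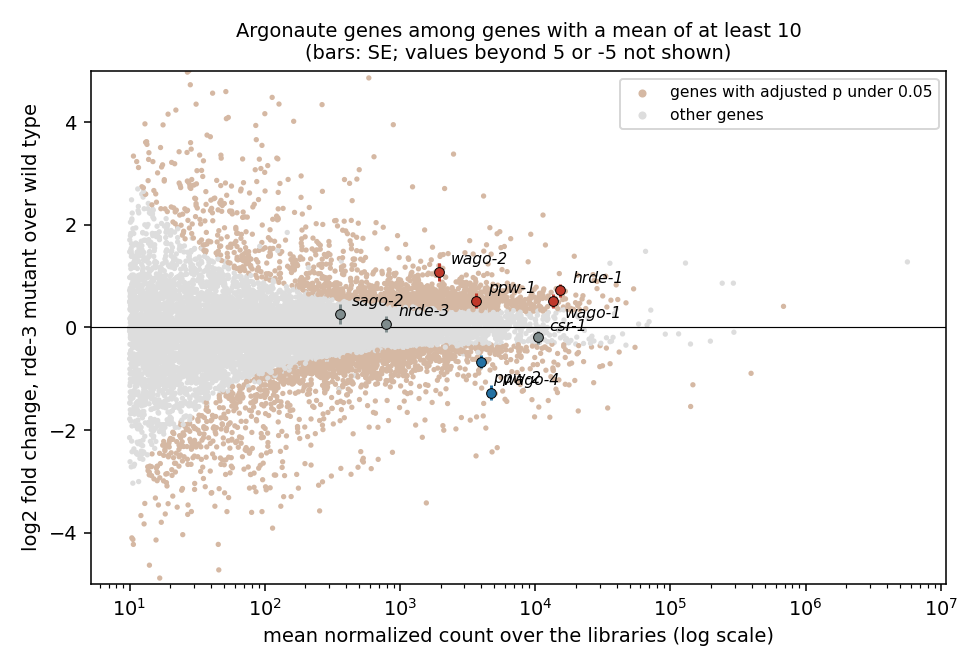
Log2 fold change against mean normalized count (log axis) for genes with a mean of at least 10, with the 9 Argonaute genes marked and their SE as bars. Pale brown points are genes with an adjusted p under 0.05, and the Argonautes lie at means from 362 for sago-2 to 15378 for hrde-1.

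Transcript length, taken here as the exonic length of a gene over all its transcripts, moved with the fold changes. The Argonautes are long genes. Their exonic lengths ran from 2936 to 3802 bases. The 528 genes with a mean of at least 300 and an exonic length in that range had a median log2 fold change of 0.29, against 0.04 for the 4234 shorter genes with such a mean. Of the 528 genes, 43.9% were called, 40% higher and 3.98% lower. That length range was set by the Argonautes, and all 9 are among the 528 genes, so the set is not an independent background. Within it higher calls, as for 4 Argonautes, were frequent, and lower calls, as for 2, were rare. When a smooth trend with length was subtracted from the authors' values, which took 0.22 to 0.27 from each log2 value, wago-1 (log2 0.29, adjusted p = 0.167) and ppw-1 (log2 0.29, adjusted p = 0.181) no longer passed. Under the same change csr-1 was called lower (log2 -0.45, adjusted p = 0.00519, with the authors' standard error). The value of nrde-3 turned to -0.18 and did not pass. The calls for wago-2 (log2 0.81), hrde-1 (0.47), ppw-2 (-0.92) and wago-4 (-1.52) held. What lies behind the length trend was not tested.

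**Figure D4:**
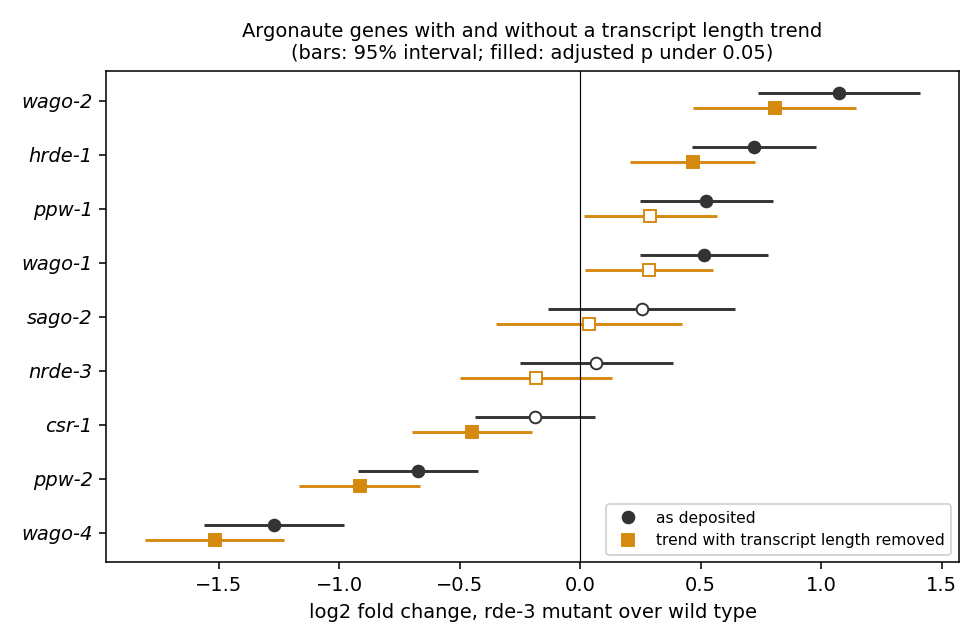
Log2 fold change of each Argonaute gene as deposited (circles) and after a trend with transcript length was removed (squares), with 95% intervals and filled symbols for adjusted p under 0.05. The squares lie 0.22 to 0.27 to the left of the circles, wago-1 and ppw-1 turn open, and csr-1 turns filled.

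Of 13 other Argonaute genes 1 was higher and 2 were lower, with a median log2 fold change of 0.09. The share called was 23.1%, against 17.5% over all features and 38.3% of genes with a mean of 300 or more. Of the 13 genes 9 had such a mean, and the called genes alg-3 and alg-4, at means of 107 and 124, did not. The gene ergo-1, whose product binds 26G siRNAs in oocytes and embryos, had a log2 fold change of 0.77 ± 0.12 (adjusted p = 1.96e-08) per the authors' deposited table. The 26G Argonautes of spermatogenesis, alg-3 and alg-4, were lower, at -1.72 ± 0.36 and -1.42 ± 0.32 on the log2 scale by the authors' deposited table. The secondary Argonaute gene sago-1, also called WAGO-8, had a log2 fold change of 0.10 ± 0.15 (adjusted p = 0.794) per the authors' deposited table. The genes wago-10 and wago-11, with mean normalized counts of 7.16 and 18.5, did not pass either. This list therefore also holds WAGOs, and its share called is not that of non-WAGO Argonautes alone. The microRNA Argonaute alg-1 (-0.13 ± 0.14) and the piRNA Argonaute prg-1 (0.20 ± 0.14) did not pass in the authors' deposited table (adjusted p = 0.701 and 0.423). With the length trend removed from the authors' values alg-1 was called lower (log2 -0.44, adjusted p = 0.0158), which made 1 higher and 3 lower of the 13. The relatives prg-1 and prg-2 are similar genes, so the division of reads between them is uncertain.

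Of 19 genes of siRNA production and amplification 7 were higher and 0 were lower, with a median log2 fold change of 0.31, and 18 of them had a mean of at least 300. The share called, all of it higher, was 36.8%. Of all genes with such a mean 23.2% were called higher and 38.3% in either direction, and 9.42% of all features were called higher. Among abundant genes of the length of the Argonautes 40% were called higher, but that length range was not set for these 19 genes. Of the 19 log2 values 17 were above 0. The endonuclease-like gene nyn-2 (log2 1.06 ± 0.20) and rde-11, a partner in siRNA amplification (0.89 ± 0.18), rose in the authors' deposited table. The RNA-dependent RNA polymerase genes rrf-3 (0.64 ± 0.14) and rrf-1 (0.59 ± 0.13) rose in the authors' deposited table. RRF-1 makes 22G siRNAs for the WAGOs, and RRF-3 acts a step earlier, in the making of primary 26G siRNAs. Higher as well were the exonuclease gene mut-7 (0.56 ± 0.15), the helicase gene rde-12 (0.54 ± 0.13) and the uridylyltransferase gene cid-1 (0.32 ± 0.12, adjusted p = 0.0443) per the authors' deposited table. The polymerase of the CSR-1 branch, ego-1, had a log2 fold change of 0.31 ± 0.12 (adjusted p = 0.0612) per the authors' deposited table. It was called higher when the authors' p-values were adjusted over features with a mean of at least 10 (adjusted p = 0.0413). Without the length trend 2 of the 19 were called, nyn-2 and rde-11, and the call for cid-1 was also lost when the authors' log2 values were shifted so that abundant genes had a median of 0 (adjusted p = 0.116).

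Of 25 genes that act with the WAGOs in the nucleus or in germ granules, 6 were higher and 1 was lower, with a median log2 fold change of 0.29. The share called was 28%, above the 17.5% of all features and below the 38.3% of genes with a mean of at least 300, which 22 of the 25 had. The peptidase gene dpf-3, whose product trims WAGO proteins (log2 0.53 ± 0.12), and nrde-2, a nuclear RNAi factor (0.41 ± 0.13), rose in the authors' deposited table. The germ granule genes glh-4 (0.55 ± 0.14), simr-1 (0.55 ± 0.15) and pgl-3 (0.50 ± 0.14) and the HRDE-1 partner hrde-2 (0.497 ± 0.18) also rose in the authors' deposited table. The P granule helicase gene glh-1 fell by 0.45 ± 0.13 on the log2 scale in the authors' deposited table. The partner of WAGO-4, znfx-1, had a log2 fold change of 0.28 ± 0.14 (adjusted p = 0.165) per the authors' deposited table, while wago-4 fell. After removal of the length trend 3 of the 25 were called, hrde-2 higher and pgl-1 and glh-1 lower. With the authors' log2 values shifted so that abundant genes had a median of 0, hrde-2 was not called (adjusted p = 0.0708) and pgl-1 was called lower (adjusted p = 0.0191).

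**Figure D5:**
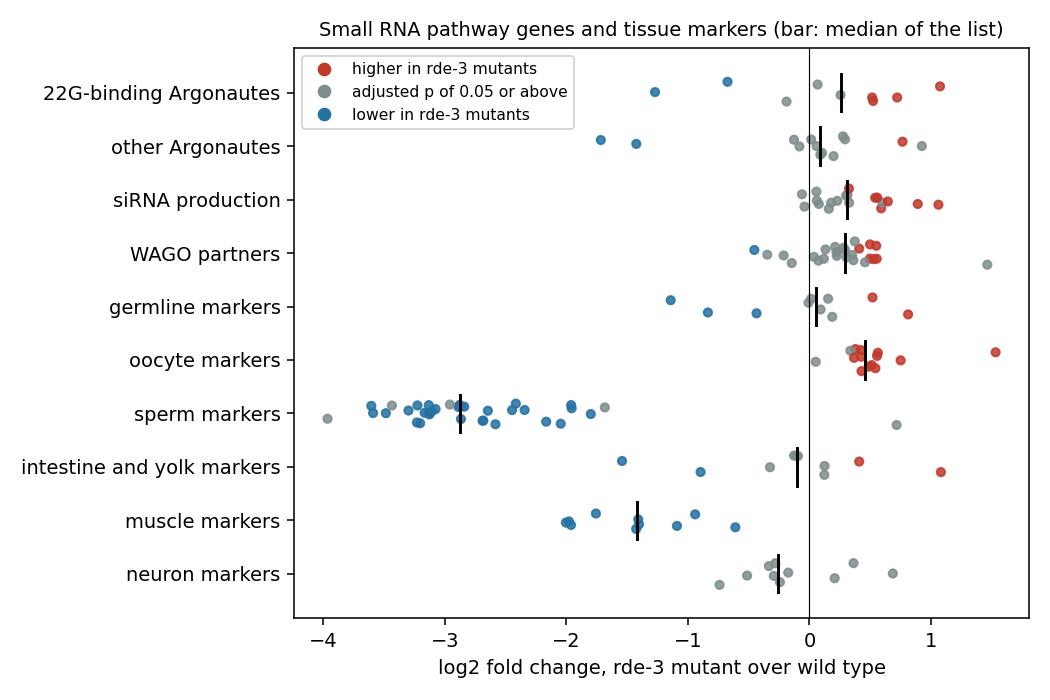
Log2 fold change of each gene in the lists of Argonautes, small RNA pathway genes and tissue markers, coloured by call, with the median of each list as a black bar. The Argonautes spread from -1.27 to 1.07, oocyte markers lie mostly above 0 (median 0.46), and sperm and muscle markers lie mostly below it (medians -2.88 and -1.42).

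Tissue markers moved as well, and in whole animals fewer cells of a type and less RNA per cell cannot be told apart. Of 14 oocyte markers 12 were higher and 0 were lower (median log2 0.46), with summed levels of 346495 implied normalized counts in the mutants and 249707 in the wild type. Of 35 sperm markers 30 were lower and 0 were higher (median log2 -2.88), with sums of 809 in the mutants and 5398 in the wild type. Most of the 35 are msp genes, similar members of a single family, so they do not count as separate markers. Outside that family spe-11, gsp-3 and gsp-4 were lower. The genes spe-9, spe-42, peel-1 and fer-1 did not pass, at low mean normalized counts of 4.57, 1.66, 1.14 and 23.5. Their log2 fold changes in the authors' deposited table were -2.96 ± 1.76, -3.96 ± 2.78, -3.44 ± 3.24 and 0.72 ± 0.67. Over all features 17.5% were called, and 38.3% of genes with a mean of at least 300, which no sperm marker had. Of 10 germline markers 2 were higher and 3 were lower, with sums of 39096 in the mutants and 35759 in the wild type. In the authors' deposited table fbf-2, a regulator of germline stem cells, had a log2 fold change of -1.14 ± 0.18, and glh-2 had 0.81 ± 0.13. All 10 muscle markers were lower (median log2 -1.42), with sums of 24257 in the mutants and 67313 in the wild type. None of the 10 neuron markers passed, 4 of 10 intestine and yolk markers did (2 higher and 2 lower), and the lowest mean of any marker was 1.14 normalized counts, among the sperm markers. The part of these tissue differences in the values of the Argonaute genes was not tested.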

How the data were processed

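Poly(A) RNA of whole gravid adults was sequenced in 4 libraries, 2 per genotype, with a Nextera XT kit, per the labels' protocols. Tools listed in the submitters' processing notes are STAR 2.7.0a, SAMtools 1.3.1, cutadapt 1.14 and Trim Galore 0.4.4, with builds ce11 and WBcel235; for the counting and the statistics a tool is not given in the sources used here. Per the file headers, the deposited tables hold a mean normalized signal, a log2 fold change, its standard error, a test statistic that is a score, and p-values with adjusted p-values. The deposited score was the ratio of log2 value and standard error (largest deviation 1.12e-13), and the deposited adjusted p-values equalled a Benjamini-Hochberg adjustment over all 18638 features. The smaller deposited table held 3254 features, those of the full table whose adjusted p was under 0.05.

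From these values group means were computed as the pair of means whose average and ratio are the deposited ones. No model of counts was fitted. Exonic lengths and coordinates came from Ensembl release 115 (WBcel235), with 18144 genes matched by name or position and 324 not matched. The alternatives recentred the log2 values, subtracted a lowess trend with length (fraction 0.3), filtered features, changed the adjustment, the threshold or the distribution. They were run in Python 3.11.15 with scipy 1.17.1 and statsmodels 0.14.6 and tested on simulated data. The members and lists were chosen with earlier results of these data known. Named genes were the Argonaute members, mut-2, the called genes of the 3 other pathway lists (at most 8 per direction), sago-1, ergo-1, alg-1 and prg-1, and up to 2 genes of smallest adjusted p per marker list, of which those of the germline list are named. The genes eme-1, frpr-10, ego-1, znfx-1, prg-2, pgl-1, wago-10 and wago-11 were named after their values were seen. So were the sperm markers outside the msp family. The ranges by length and level used as background were also chosen after the data were seen.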

Additional observations from a re-analysis of the deposited data

How the results depend on the processing

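No paired analysis was possible because the tables give comparisons and not libraries; leaving out each library was not run for that reason. The authors' p-values assume normality of their statistic. Under the t distribution with 2 degrees of freedom in its place, 0 of the 9 Argonautes, 0 of the other Argonautes, 0 of the siRNA production genes and 0 of the WAGO partners passed, and 0 of all features did (smallest adjusted p = 0.682 from the authors' statistics). The unadjusted p by that distribution was under 0.05 for 4 of the 9 Argonautes, wago-2, hrde-1, ppw-2 and wago-4, and for 6.10% of all features. With the length trend removed the number of Argonautes called was 5 (2 higher and 3 lower), that of other Argonautes 4, that of siRNA production genes 2 and that of WAGO partners 3, and the log2 value of nrde-3, not called before or after, turned to -0.18 (adjusted p = 0.615, with the authors' standard error). With Holm's adjustment 4 Argonautes, 2 other Argonautes, 2 production genes and 0 partners passed, and wago-1, ppw-1 and alg-4 were among the genes that lost their calls. The 6 Argonaute calls held after recentring by 0.05, at a threshold of 0.01, with repeats left out, and over features with a mean of at least 10, where 8 production genes and 8 partners passed.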
